A study of Mus musculus with 12 samples.

Results

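The genes of fatty acid beta-oxidation were examined in bulk RNA-seq of tumor-associated macrophages (TAMs). The group comprises 10 genes chosen by their symbols, Cpt1a, Cpt2, Slc25a20, Acadvl, Acadl, Acadm, Hadha, Hadhb, Etfdh and Ppargc1b, of the 55401 genes listed in the count tables. Each symbol occurred once in each table. TAMs had been sorted as CD45+CD11b+Ly6C-Ly6G-F4/80+ cells from tumors of the mouse melanoma line B16. In the genotype comparison, 3 samples from mice with a floxed AMPK gene and Cre at both copies of the Lyz2 locus (AMPKfl/flLyz2cre/cre, AMPK-KO) were set against 3 from mice labelled with the floxed gene and no Cre allele (AMPKfl/fl, WT), all from day 15 tumors by the study's methods. In the stage comparison, 3 late-stage samples (day 15) were set against 3 early-stage samples (day 8). The labels give the latter 2 groups as WT mice, and no sample was treated. By the methods, the mice were aged 5 weeks and had a C57BL/6 background. Lyz2 is known to be active in other myeloid cells as well as macrophages, so Cre is not restricted to TAMs. The genotype fields of AMPK-KO replicates 2 and 3 read Lyz3cre/cre and Lyz4cre/cre, while their titles give Lyz2cre/cre. The labels do not say whether a sample came from 1 mouse or a pool, so p-values measure only the spread between these samples.

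Long-chain fatty acids enter mitochondria as carnitine esters. CPT1A in the outer membrane makes the ester, the translocase SLC25A20 carries it across the inner membrane, and CPT2 turns it back into acyl-CoA. The acyl-CoA dehydrogenases, the trifunctional protein and a thiolase then shorten the chain turn by turn, and the electrons taken from it reach ubiquinone through the electron transfer flavoprotein and ETFDH. AMPK, the energy-sensing kinase deleted in the AMPK-KO mice, is known to act on this pathway mainly at the protein level, by inhibiting the acetyl-CoA carboxylases that make malonyl-CoA, the inhibitor of CPT1. Macrophages are known to differ in how much they use the pathway with their state of activation.

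Promoter sequence is shown for 2 sites whose genes are compared in detail. Hadha and Hadhb, which encode both subunits of the trifunctional protein, lie head to head on chromosome 5 with 85 bases between their annotated start sites, so that the ratio of their counts can be followed within each library. Slc25a20 was the single member that passed the test in either comparison. Both stretches are RefSeq sequence of GRCm38.p6 on the plus strand, chr5:30155163-30155247 and chr9:108661886-108662087, the latter ending just before the annotated start of Slc25a20.
Hadha-Hadhb gap: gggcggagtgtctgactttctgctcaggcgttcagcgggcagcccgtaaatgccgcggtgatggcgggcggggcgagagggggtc
Slc25a20 upstream: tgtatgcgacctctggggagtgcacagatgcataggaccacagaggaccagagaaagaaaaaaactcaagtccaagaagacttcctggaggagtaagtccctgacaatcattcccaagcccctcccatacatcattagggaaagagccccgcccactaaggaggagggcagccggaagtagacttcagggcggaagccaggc
The GC content was 69.4% in the first stretch and 54% in the second. Promoter windows of 250 bases before to 50 after the RefSeq start were found for 9 of the 10 genes, and both strands were searched for 3 motifs. The core AGGTCA is the piece that nuclear receptors share. The PPAR element, a direct repeat of this core with a 1-base spacer, was in 0 of the 9 windows and in 0.0396% of 32851 mouse windows, and the element TCAAGGTCA of the estrogen-related receptors was in 0 of 9 and in 0.423%. The core alone was present once each in the windows of Cpt1a (94 bases before the start), Acadvl (87 before) and Acadm (at the far end), and in 16.3% of all windows. The element TCAAGGTCA contains the core, so these matches can overlap. Neither printed stretch holds any of these motifs.

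Total counts ranged from 71019494 to 81671067 in WT, from 73669620 to 80911139 in AMPK-KO, from 77155066 to 84470374 in early-stage and from 79623704 to 82499295 in late-stage samples. Prkaa1, which encodes the deleted AMPK subunit, was at 42.9 ± 3.53 CPM in AMPK-KO and 65.0 ± 3.34 CPM in WT samples (SD, n = 3), without overlap. The count covers the whole gene, and the deleted exons are not given in the labels. Lyz2, the locus that carries Cre, overlapped between the genotypes, at 11.2 ± 2.16 CPM in AMPK-KO and 10.7 ± 2.46 CPM in WT. It was at 1107 ± 19.1 CPM in late-stage and 2790 ± 279 CPM in early-stage samples, in a table scaled separately. Lyz2 in the samples labelled WT was thus as low as in those with Cre at both copies of the locus, which goes against a label without a Cre allele, and whether these mice carried the Lyz2 insertion cannot be told from the labels. The macrophage genes Adgre1 and Csf1r were at 809.95 CPM or more in every sample. The Y-linked genes together had 3435 to 4035 counts in each early-stage and 0 to 4 counts in each late-stage sample, so stage and sex cannot be told apart. They had 9229 to 11360 counts in WT and 11299 to 12183 counts in AMPK-KO samples, where Ddx3y was called higher in AMPK-KO (log2 fold change 0.28, adjusted p = 0.0151) and the other 3 were not called. The methods name female mice, which the Y-linked counts of the WT, AMPK-KO and early-stage samples go against. In bulk RNA, fewer cells of a type and less RNA per cell cannot be told apart either.

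All 10 genes were well covered, with 521 to 14213 counts per sample, and all passed the filter on low counts. Values are counts scaled to library size by TMM and given as CPM, each table scaled on its own. The summed level of the 10 genes was 638 to 655 CPM in AMPK-KO, 649 to 654 CPM in WT, 621 to 667 CPM in early-stage and 638 to 679 CPM in late-stage samples. The ranges overlapped in both comparisons. Between samples of a group, the median coefficient of variation of the 10 genes was 2.57% in AMPK-KO, 5.52% in WT, 7.81% in early-stage and 5.09% in late-stage TAMs. Acadvl varied most, by 18.05% among early-stage samples.

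**Figure D1:**
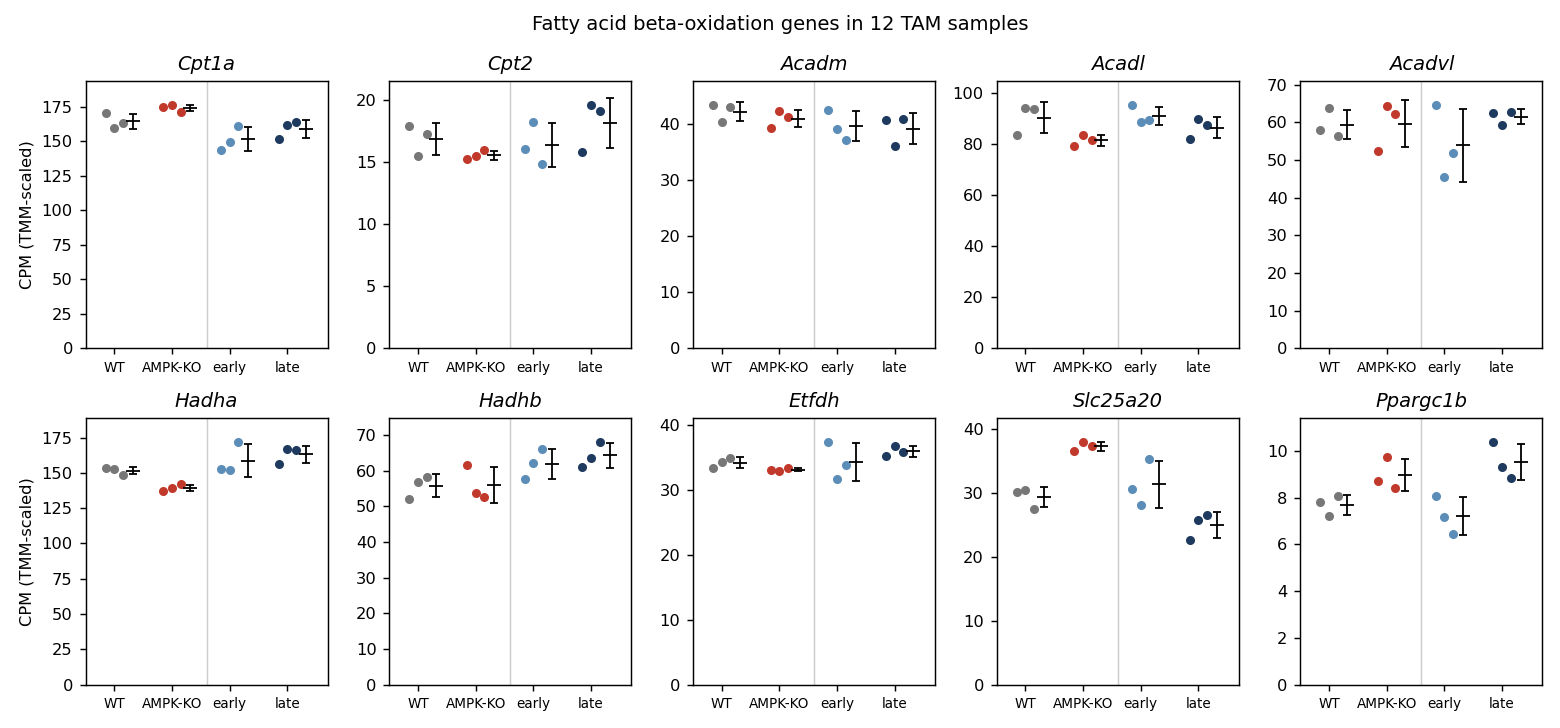
Level of each of the 10 genes in the 12 samples, in TMM-scaled CPM on an axis from 0, with 1 panel per gene. Points are samples in the order of their replicate numbers, the bar beside them is the group mean with its SD, and the grey line separates both tables, which were scaled separately. Slc25a20 is the gene whose groups stand apart in both comparisons in opposite directions, while the points of most other genes overlap.

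To compare the genes with each other, levels were divided by the length of the merged exons of each gene. This length covers every annotated exon, 2005 bases for Acadl and 8730 for Hadha, and can exceed that of the transcript present. The order below depends on it, and in CPM Cpt1a and Hadha stood above Acadl in every group. Per kb of merged exon, Acadl, the long-chain acyl-CoA dehydrogenase, was the highest in all 4 groups, with group means of 40.5 to 45.3 CPM per kb. Acadvl and Cpt1a came next at 19.8 to 22.9 CPM per kb. These neighbours changed places between the groups, and differed by less than the SD of Acadvl in AMPK-KO (22.2 ± 2.34 and 22.8 ± 0.307), WT and early-stage samples, but not in late-stage samples (22.9 ± 0.728 and 20.8 ± 0.849). They were followed by Hadha (15.96 to 18.7), Acadm (9.997 to 10.8) and Hadhb (8.46 to 9.75). The last were Cpt2 (6.49 to 7.59), Slc25a20 (5.17 to 7.72), Etfdh (4.41 to 4.78) and Ppargc1b (1.81 to 2.39 CPM per kb). Slc25a20 stood above Cpt2 in AMPK-KO (7.72 ± 0.143 and 6.49 ± 0.153) and below it in the other groups, within the SD in early-stage samples (6.48 ± 0.747 and 6.84 ± 0.729). Acadm and Hadhb in late-stage samples, and Slc25a20 and Etfdh in late-stage samples, also lay within the larger SD of each other. The dehydrogenases and CPT1A transcripts were thus at higher levels per length than the translocase and the electron acceptor, and the coactivator was the lowest in every group. Acadvl shares 1151 of its 2686 exon bases (42.9%) with Dvl2 on the opposite strand. The handling of strand in the counting is not given in the sources used here, so its level is uncertain.

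**Figure D2:**
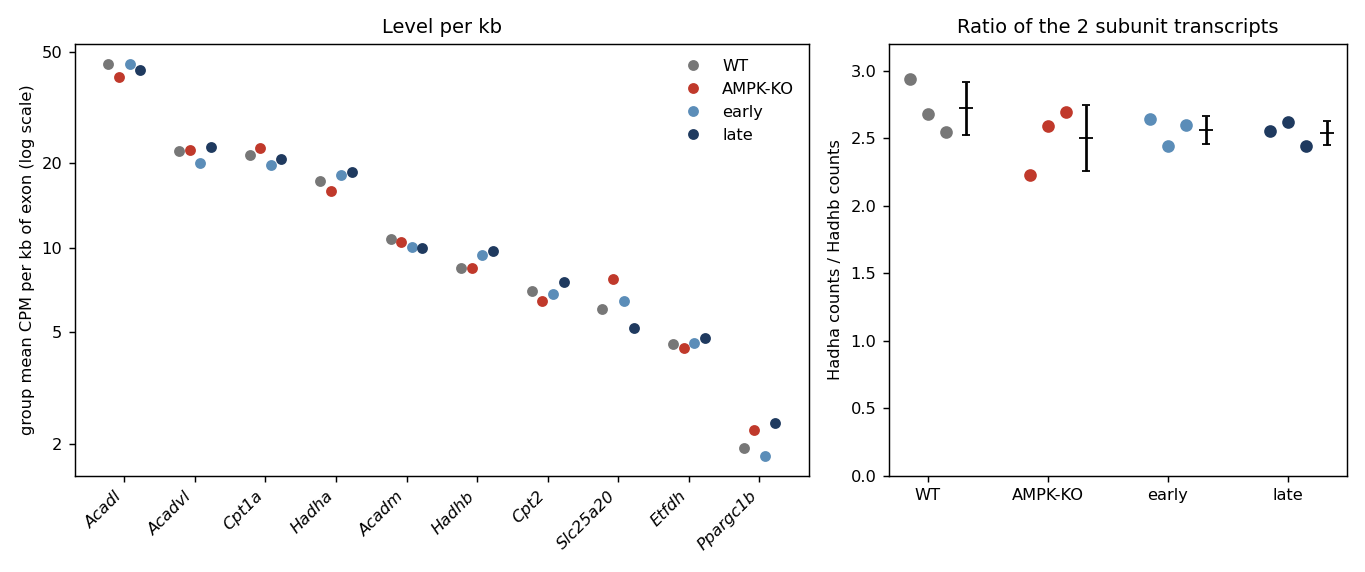
Left, group mean of each gene in CPM per kb of merged exon on a log axis, with genes ordered by level and 1 color per group. Right, the ratio of Hadha to Hadhb counts in each sample, with the group mean and SD beside the points. Per kb of merged exon, Acadl is the highest and Ppargc1b the lowest gene in every group. The ratio lies between 2.23 and 2.94 in all 12 samples.

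In AMPK-KO against WT TAMs, the carnitine-acylcarnitine translocase gene Slc25a20 rose and the other 9 genes did not pass the test. The test was edgeR's quasi-likelihood test over 17532 genes with Benjamini-Hochberg adjustment, and a gene was called when its adjusted p was under 0.05. The count was 1 of 10 genes higher and 0 lower, where 11.3% of all genes tested were called higher and 9.78% lower (21.1% in either direction). Thus the share of members called was not above that of all genes. An unadjusted p under 0.05 was found for 3 members, and for 32.6% of all genes. No member had an absolute log2 fold change above 1, which 3.34% of all genes had together with an adjusted p under 0.05. The median log2 fold change of the 10 genes was −0.02, against −0.0037 for all genes.

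Slc25a20 (ENSMUSG00000032602.6, chromosome 9, 108662088 to 108684641, plus strand) was at 36.6, 38.0 and 37.5 CPM in the AMPK-KO samples and at 30.2, 30.5 and 27.6 CPM in the WT samples. Every AMPK-KO sample was above every WT sample, and the groups were 37.4 ± 0.695 and 29.4 ± 1.57 CPM. The difference was 1.27-fold, a log2 fold change of 0.35 (SE 0.07, 95% interval 0.20 to 0.50, adjusted p = 0.00477). It was called with each library left out in turn, with an adjusted p of up to 0.0327. DESeq2 gave an adjusted p of 1.3e-04.

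The carnitine palmitoyltransferases on either side of the translocase were not called. Cpt1a was at 175, 176 and 171 CPM in AMPK-KO and at 170, 159 and 163 CPM in WT samples. These groups did not overlap, but the log2 fold change was 0.08 (SE 0.05, adjusted p = 0.259). Cpt2, at 15.2, 15.4 and 15.9 CPM in AMPK-KO and 17.9, 15.4 and 17.2 CPM in WT, overlapped, with a log2 fold change of −0.12 (adjusted p = 0.415).

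Among the acyl-CoA dehydrogenases, which carry out the first step of each turn and differ in the chain length they accept, Acadl had the largest difference. It was at 79.1, 83.6 and 81.3 CPM in AMPK-KO and at 83.3, 94.0 and 93.4 CPM in WT samples. WT replicate 1 lay within the AMPK-KO range. The log2 fold change was −0.15 (SE 0.06, unadjusted p = 0.0338, adjusted p = 0.116), and without WT replicate 1 Acadl was called lower at −0.21 (adjusted p = 0.0237). For the very-long-chain enzyme Acadvl and the medium-chain enzyme Acadm the log2 fold changes were 0.01 (adjusted p = 0.958) and −0.04 (adjusted p = 0.694), with overlapping groups.

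The trifunctional protein carries out the later steps for long chains, with the hydratase and hydroxyacyl-CoA dehydrogenase in the alpha subunit (Hadha) and the thiolase in the beta subunit (Hadhb). Hadha was at 137, 139 and 142 CPM in AMPK-KO and at 153, 153 and 149 CPM in WT samples. Each AMPK-KO sample lay below each WT sample, yet the log2 fold change of −0.12 (SE 0.05, unadjusted p = 0.0250) did not pass after adjustment (adjusted p = 0.0938). Hadhb overlapped, at 61.7, 53.7 and 52.6 CPM in AMPK-KO and 52.1, 56.9 and 58.3 CPM in WT (log2 fold change 0.0049, adjusted p = 0.973). Etfdh, which hands the electrons to ubiquinone, was at 33.1 ± 0.231 and 34.2 ± 0.830 CPM (adjusted p = 0.664).

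Ppargc1b encodes PGC-1beta, a coactivator of nuclear receptors that is known to promote mitochondrial gene expression. It was at 8.71, 9.72 and 8.43 CPM in AMPK-KO and at 7.80, 7.22 and 8.07 CPM in WT samples. The groups did not overlap, and the log2 fold change was 0.22 (SE 0.11, adjusted p = 0.212). In all, the groups did not overlap for 4 of the 10 genes (Slc25a20, Cpt1a and Ppargc1b higher, Hadha lower), where 37.2% of all genes tested did not overlap (18.8% higher, 18.4% lower).

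The data also limit how large a difference the other genes could have. The 95% intervals of the 9 genes that were not called lay between −0.32 and 0.47 on the log2 scale, that is between 0.801-fold and 1.38-fold.

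**Figure D3:**
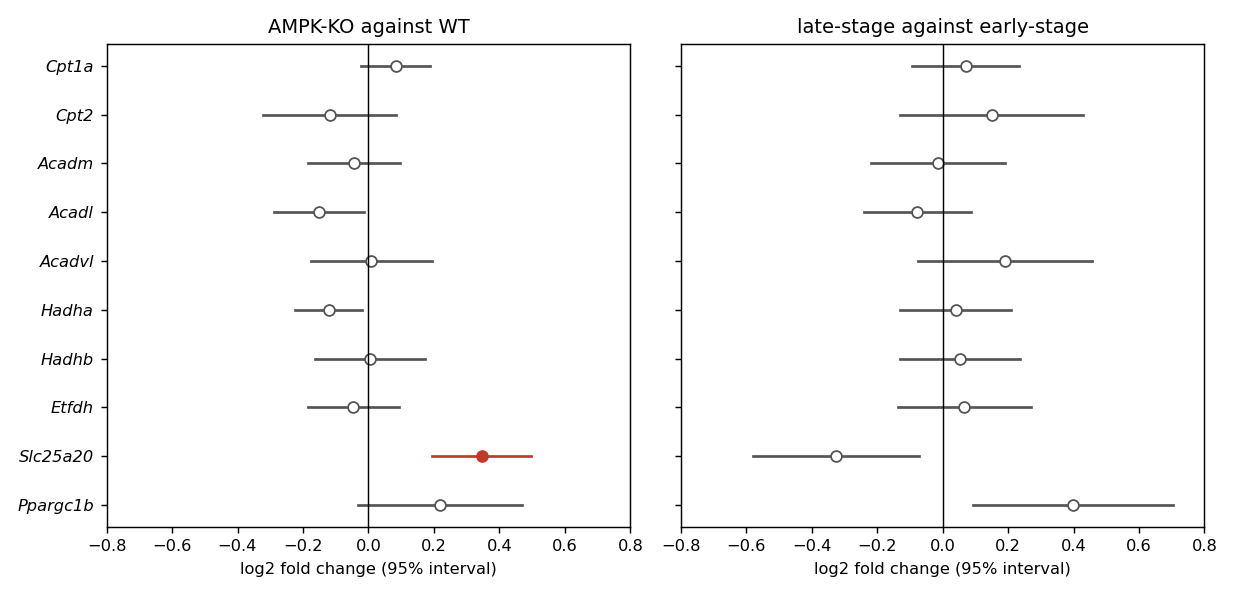
Log2 fold change of the 10 genes with its 95% interval, for AMPK-KO against WT on the left and late-stage against early-stage on the right. Filled red points have an adjusted p under 0.05 in edgeR's quasi-likelihood test and open points do not. Slc25a20 is the single filled point, at 0.35 in the genotype comparison, and lies at −0.33 in the stage comparison.

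Other transcripts moved with genotype in these samples. The 7 melanoma markers summed to 676 to 716 CPM in AMPK-KO and 998 to 999 CPM in WT, with 6 of 7 lower. T cell markers were at 182 to 188 against 100.2 to 113 CPM (6 of 7 higher) and NK cell markers at 78.4 to 80.4 against 31.9 to 35.3 CPM (6 of 6 higher). Neutrophil markers were at 158 to 160.3 against 95.4 to 102 CPM (3 of 4 tested higher, with Ly6g at 0 in every sample), and dendritic cell markers at 96.2 to 102 against 63.7 to 73.7 CPM (5 of 6 higher). Csf3r made up most of the neutrophil sum, at 154 ± 1.40 CPM in AMPK-KO and 96.5 ± 3.19 CPM in WT. S100a8 and S100a9 had group means of 0.697 to 2.47 CPM. Fibroblast markers were at 739.7 to 819 against 569 to 616 CPM (5 of 5 higher) and endothelial markers at 125 to 128 against 56.2 to 68.6 CPM (2 of 4 tested higher, 1 lower). B cell markers were at 19.9 to 22.1 against 30.9 to 32.5 CPM (4 of 5 lower, 1 higher). The summed levels of the 10 macrophage markers overlapped, at 12727 to 13095 and 12565 to 13960 CPM (2 higher, 1 lower). Single macrophage markers moved in opposite directions. Itgam was higher, at 1566 ± 102 CPM in AMPK-KO and 1067 ± 27.4 CPM in WT, as was Csf1r (log2 fold change 0.14). Cd68 was lower, at 931 ± 43.6 CPM in AMPK-KO and 1361 ± 9.79 CPM in WT. The part of the other cells and of these macrophage markers in the difference of Slc25a20 was not tested.

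In late-stage against early-stage TAMs, none of the 10 genes was called. Over 17630 genes, edgeR's quasi-likelihood test with Benjamini-Hochberg adjustment gave 0 of 10, as did DESeq2, where edgeR called 9.18% of all genes (4.31% higher, 4.88% lower). An absolute log2 fold change above 1 was reached by 0 members and, with an adjusted p under 0.05, by 1.87% of all genes. An unadjusted p under 0.05 was found for 2 of the 10, Ppargc1b and Slc25a20, and for 24.5% of all genes. These were also the genes whose groups did not overlap (1 higher, 1 lower), against 31.2% of all genes (15.6% in each direction). The median log2 fold change of the 10 genes was 0.06, against 0.0027 for all genes.

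Slc25a20 was at 22.7, 25.8 and 26.7 CPM in the late-stage and at 30.7, 28.2 and 35.3 CPM in the early-stage samples. Each late-stage sample lay below each early-stage sample. The log2 fold change was −0.33 (SE 0.11, 95% interval −0.58 to −0.07, unadjusted p = 0.0167), and the adjusted p was 0.108 with edgeR and 0.0505 with DESeq2. Its value thus lay below 0 with tumor stage and above 0 with AMPK-KO, and the difference between these effects was not tested.

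Ppargc1b was at 10.4, 9.33 and 8.85 CPM in the late-stage and at 8.06, 7.16 and 6.44 CPM in the early-stage samples. Every late-stage sample was above every early-stage sample. The log2 fold change was 0.40 (SE 0.14, 95% interval 0.09 to 0.71, unadjusted p = 0.0160), with an adjusted p of 0.105 in edgeR and 0.0578 in DESeq2.

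For Acadvl, the late-stage samples were close together at 62.5, 59.3 and 62.8 CPM, and the early-stage samples were spread over 64.6, 45.5 and 51.8 CPM. The groups overlapped through early-stage replicate 1 (log2 fold change 0.19, adjusted p = 0.372). Without that library Acadvl was called higher, at 0.34 (adjusted p = 0.0268).

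The 7 remaining genes overlapped between the stages. Cpt1a was at 151, 162 and 164 CPM in late-stage and at 144, 149 and 161 CPM in early-stage samples, and Cpt2 at 18.1 ± 2.03 and 16.3 ± 1.74 CPM. Their log2 fold changes were 0.07 (adjusted p = 0.605) and 0.15 (adjusted p = 0.513). Hadha, at 163 ± 5.97 and 159 ± 11.4 CPM, differed by 0.04 on the log2 scale (adjusted p = 0.793). Hadhb was at 64.3 ± 3.50 and 61.9 ± 4.24 CPM, and Etfdh at 35.9 ± 0.849 and 34.3 ± 2.89 CPM. The log2 fold changes of Acadl and Acadm were −0.08 (adjusted p = 0.574) and −0.01 (adjusted p = 0.945). Across these 7 genes and the other 3, the 95% intervals lay between −0.58 and 0.71, or 0.670-fold to 1.63-fold, and those of 8 genes lay within ±0.5.

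Between the stages, melanoma markers summed to 767 to 1203 CPM in late-stage and 1663 to 1807 CPM in early-stage samples (5 of 7 lower), fibroblast markers to 391.9 to 553 against 798 to 876 CPM (3 of 5 lower) and NK cell markers to 38.6 to 52.8 against 86.6 to 98.6 CPM (4 of 6 lower). T cell markers were at 203 to 239 against 162 to 174 CPM (3 of 7 higher) and B cell markers at 57.5 to 82.9 against 37.3 to 41.8 CPM (3 of 5 higher). Neutrophil markers were at 64.3 to 79.2 against 73.6 to 87.1 CPM (2 of 3 tested lower), dendritic cell markers at 86.0 to 93.5 against 77.0 to 80.8 CPM (1 of 6 higher), and endothelial markers at 86.3 to 90.4 against 97.4 to 99.1 CPM (1 of 5 lower). Csf3r made up most of the neutrophil sum here too, at 69.7 ± 8.15 and 76.9 ± 7.22 CPM, and was not called. Macrophage markers summed to 12747 to 12837 CPM in late-stage and 9721 to 12147 CPM in early-stage samples (1 of 10 higher). The part of these differences in the values of Slc25a20 and Ppargc1b was not tested.

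The ratio of Hadha to Hadhb counts needs no scaling between libraries. It was 2.23, 2.59 and 2.69 in AMPK-KO and 2.94, 2.68 and 2.55 in WT samples, so the groups overlapped (2.50 ± 0.245 and 2.72 ± 0.198, two-sided exact permutation test of the log2 ratio, p = 0.5). In late-stage samples it was 2.56, 2.62 and 2.44, and in early-stage samples 2.65, 2.44 and 2.60 (exact permutation test, p = 0.7). With 3 samples against 3 the smallest p this test allows is 0.1. Hadha shares 75 of its 8730 exon bases (0.859%) with Garem2.

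Around the 10 genes, 11 lists of pathway genes were followed, from the uptake of fatty acids to the ketone bodies. In AMPK-KO against WT, 13 of the 77 tested genes of these lists rose and 14 fell, or 35.1% against 21.1% of all genes. In late-stage against early-stage TAMs, 3 of 78 rose and 4 fell, or 9% against 9.18% of all genes. The comparisons share no sample. The lists were chosen with earlier results of these data known, so these shares cannot show an excess over all genes.

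The other enzymes of the spiral gave no call. Of the 12 listed (Acads, Acad9, Acad10, Acad11, Acad12, Echs1, Hadh, Acaa2, Hsd17b10, Eci1, Eci2 and Decr1), 0 were called in either comparison with edgeR or with DESeq2, and 3 had an unadjusted p under 0.05 in each, with log2 fold changes of −0.45 to 0.15 for AMPK-KO and −0.15 to 0.29 for late-stage TAMs. In AMPK-KO, 5 of the 12 were lower without overlap and 0 higher, where 18.4% and 18.8% of all genes were, and the median log2 fold change was −0.16. Between the stages, 2 were higher without overlap and 0 lower, where 15.6% of all genes were in each direction, with a median of 0.10. The short-chain hydroxyacyl-CoA dehydrogenase Hadh was at 27.6 ± 1.71 CPM in AMPK-KO and 31.7 ± 1.63 CPM in WT, without overlap (adjusted p = 0.0925). The electron transfer flavoprotein genes (3 tested), those of malonyl-CoA control (Acaca, Acacb and Mlycd) and those of propionyl-CoA handling (4 tested) had no call in either comparison with edgeR. At an unadjusted p under 0.05 there were 1, 0 and 1 of these in AMPK-KO and 0, 0 and 1 between the stages, and DESeq2 called Etfb (log2 fold change −0.29) and Mcee in AMPK-KO. Acaca and Acacb, the acetyl-CoA carboxylases on which AMPK acts, had log2 fold changes of 0.01 (adjusted p = 0.966) and −0.54 (adjusted p = 0.248) in AMPK-KO.

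Uptake and activation of fatty acids held most changes, with 3 of 9 genes higher and 4 lower in AMPK-KO, and 2 higher and 2 lower in late-stage TAMs. Cd36, the fatty acid translocase, fell from 469.96 ± 4.52 CPM in WT to 302 ± 9.60 CPM in AMPK-KO (−0.64 on the log2 scale, adjusted p = 4.3e-06) and from 607 ± 57.9 CPM in early-stage to 368 ± 21.7 CPM in late-stage TAMs (−0.72). Fabp5, a cytosolic fatty acid carrier, fell by 0.55 and by 0.98 on the log2 scale. The related carrier Fabp4 fell in AMPK-KO, from 25.3 ± 2.26 to 9.11 ± 0.302 CPM (−1.47). By contrast, the acyl-CoA synthetase genes Acsl1 and Acsl5, whose products make the acyl-CoA that CPT1A uses, rose in both comparisons. Acsl1 went from 58.4 ± 1.89 to 91.9 ± 4.17 CPM with AMPK-KO (0.65) and from 75.0 ± 9.24 to 108 ± 2.31 CPM with stage (0.53), and Acsl5 had log2 fold changes of 0.28 and 0.32.

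Of the carnitine genes beyond the members, the peroxisomal carnitine octanoyltransferase Crot rose in AMPK-KO (log2 fold change 0.32, adjusted p = 0.0101) and the carnitine acetyltransferase Crat fell (−0.23, adjusted p = 0.0166), and 0 of the 5 genes of this list were called between the stages with edgeR or DESeq2 (2 at an unadjusted p under 0.05). The other isoforms of CPT1, Cpt1b and Cpt1c, were at most at 1.05 CPM in the group means. Peroxisomal beta-oxidation had 3 genes higher and 1 lower of 13 in AMPK-KO and 0 of 13 called between the stages (1 at an unadjusted p under 0.05, Pecr, which DESeq2 called). The acyl-CoA oxidase gene Acox3 was among those that rose (0.45).

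Among the regulators, Pparg, the PPAR known for lipid storage genes, rose with AMPK-KO from 41.2 ± 1.40 to 51.3 ± 0.882 CPM (0.32 on the log2 scale, adjusted p = 0.00319) and with stage from 55.3 ± 2.55 to 67.8 ± 1.05 CPM (0.30, adjusted p = 0.0338). Ppara, the PPAR best known for activating beta-oxidation genes, was too low to test in either table, and Ppard was not called (adjusted p = 0.663 and 0.300). Ppargc1a, the relative of Ppargc1b, fell from 3.25 ± 0.547 CPM in WT to 1.82 ± 0.363 CPM in AMPK-KO (−0.84, adjusted p = 0.0225), whereas the value of Ppargc1b lay above 0 without passing. Esrra, an orphan receptor that binds these coactivators, differed by 0.19 on the log2 scale in AMPK-KO (adjusted p = 0.0957) and by 0.25 in late-stage TAMs (adjusted p = 0.335). The deacetylase Sirt3 rose (0.43) and the partner receptor Rxra fell (−0.26) in AMPK-KO. In all, 2 of 10 tested regulators rose and 2 fell with AMPK-KO, and 1 rose with stage.

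Of the PPAR target genes outside the spiral, 4 of 7 fell and 1 rose in AMPK-KO. Plin2, the coat protein of lipid droplets, fell from 1123 ± 34.5 to 783 ± 27.7 CPM in AMPK-KO (−0.52) and from 1025 ± 36.4 to 815 ± 15.0 CPM in late-stage TAMs (−0.33, adjusted p = 0.0109), its list having 1 of 8 lower and 0 higher there. Angptl4 fell (−0.64) and the uncoupling protein gene Ucp2 rose (0.25) in AMPK-KO. For lipid breakdown, 3 of 6 genes rose and 1 fell in AMPK-KO. The hormone-sensitive lipase gene Lipe rose (0.64) and the lysosomal lipase gene Lipa fell (−0.38), and G0s2, which inhibits the lipase ATGL, rose from a low level of 0.449 ± 0.174 to 1.42 ± 0.349 CPM (1.66). Between the stages, the monoglyceride lipase gene Mgll was the 1 gene of this list that edgeR called, lower at −0.64 (adjusted p = 0.0404). It lost this call in 5 of the 6 fits that left out a library and with no filter beyond 1 count (adjusted p = 0.119), and DESeq2 called Mgll and Pnpla2. The ketone body list had 1 of 5 called in AMPK-KO, Acat1 (−0.26), and 0 between the stages with edgeR or DESeq2 (1 at an unadjusted p under 0.05).

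**Figure D4:**
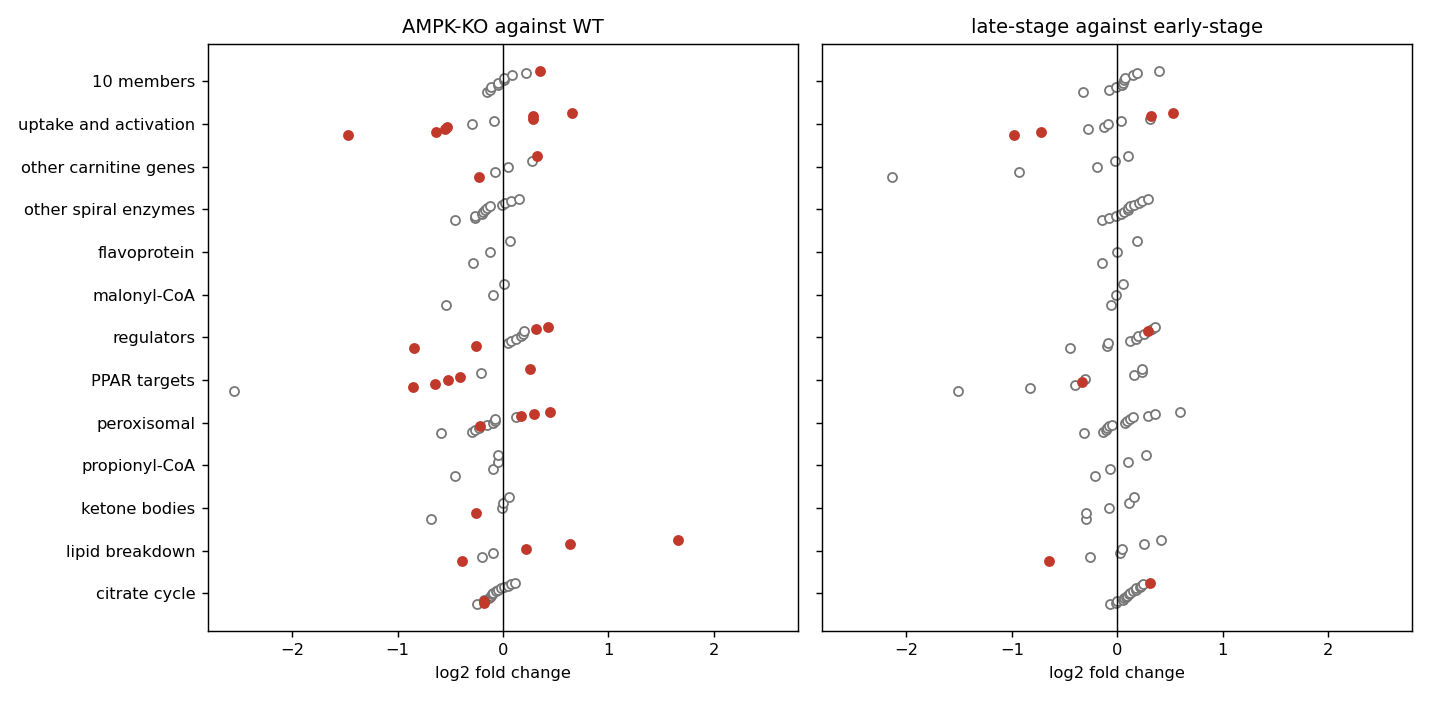
Log2 fold change of each tested gene of the 10 members, the 11 pathway lists and the citrate cycle, for AMPK-KO against WT on the left and late-stage against early-stage on the right. Filled red points have an adjusted p under 0.05 in edgeR's quasi-likelihood test and open points do not, with small vertical offsets for legibility. The members and the other spiral enzymes lie between −0.45 and 0.40, and red points are most frequent for uptake and activation, where they lie on both sides of 0.

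The pathway genes that edgeR called in both comparisons were 6, or 22.2% of the 27 called with AMPK-KO and 85.7% of the 7 called with stage. Acsl1, Acsl5 and Pparg were higher in both and Cd36, Fabp5 and Plin2 lower in both. Of the 6 fits that each left out 1 library, Acsl5, Pparg and Plin2 each lost the stage call in 4, and Acsl1 in 1. Pparg also lost it in 2 of the other settings. DESeq2 also called Slc27a1, Pnpla2, Ucp2 and Hilpda in both. Slc27a1 was lower with AMPK-KO (−0.53) and higher with stage (0.31, edgeR adjusted p = 0.0794). Pnpla2 and Ucp2 were higher and Hilpda lower in both. Of all 16812 genes tested in both tables, 822 were called in both, or 22.4% of those called with AMPK-KO and 51.2% of those called with stage, with 197 higher in both, 259 lower in both and 366 in opposite directions. Among the markers of other cells, 4 of 7 melanoma markers were lower in both and 3 of 7 T cell markers higher in both, and their part in the shared pathway calls was not tested. The citrate cycle, which takes up the acetyl-CoA made by beta-oxidation, was set beside the members. In AMPK-KO, 2 of its 16 genes fell (Mdh2 and Idh3a, both −0.18) and 0 rose, with a median log2 fold change of −0.10. In late-stage TAMs 1 rose (Idh3g, 0.31) and 0 fell, with a median of 0.12. Without overlap, 7 of the 16 were lower and 0 higher in AMPK-KO, where 18.4% and 18.8% of all genes were. Between the stages, 8 were higher without overlap and 0 lower, where 15.6% of all genes were in each direction.

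As a description of likeness, the log2 CPM of each list gene was compared with the mean standardised log2 CPM of the 10 genes over the 6 samples of a table. The 6 samples fall into 2 groups and share the scaling of their table. The most alike genes were Hadh (Pearson r = 0.805), Acsl3 (0.712) and Pdk4 (0.685, at 0 to 43 counts per sample) in the genotype table. In the stage table they were Acads (0.865), Acaa2 (0.842) and Pccb (0.830), none of which was called between the stages.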

How the data were processed

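RNA of sorted TAMs was sequenced by a service provider. The authors aligned the reads with HISAT2, assigned them to genes with featureCounts and deposited unnormalized counts, in 1 table per comparison. Versions of these tools and the handling of strand are not given in the sources used here. The methods write GRCh38 for mouse, whereas the submitters' processing notes name mm10 and GRCm38, and positions were taken from GENCODE M21 where the identifier matched with its version. No column was left unused (0).

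Each table was analysed on its own in R 4.3.3 with edgeR 4.0.16 (filterByExpr, TMM, quasi-likelihood test, no covariates), adjusted by Benjamini-Hochberg over all genes tested. Genes were called at any fold when the adjusted p was under 0.05, whereas the study's rule was DESeq2 with an unadjusted p under 0.05 and more than a 1-unit change on the log2 scale. CPM are given as mean ± SD (n = 3). The comparisons were tested on simulated data. Alternatives were RLE, upper-quartile or no scaling factors, DESeq2 1.42.0, other count filters and thresholds, the replicate block and each library left out.

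The members and lists were chosen with earlier results of these data known. Named were all members, 5 regulators of the pathway and Prkaa1, from each list up to 2 called genes per direction with the smallest adjusted p, and the 3 genes most like the members in pattern. Some genes this rule names are not reported here. Fabp5 in AMPK-KO, single spiral, carnitine, malonyl-CoA and citrate cycle genes, Pecr, Etfb, Mcee, Pnpla2, Ddx3y, Lyz2, Adgre1 and Csf1r were named after their values were seen. So were Itgam, Cd68, Csf3r, S100a8, S100a9, Slc27a1 and Hilpda. Markers were listed for macrophages, melanoma, T, NK, B and dendritic cells, neutrophils, fibroblasts and endothelial cells. Total counts per group stand in the results, and every test includes the spread between samples beside counting error.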

Additional observations from a re-analysis of the deposited data

How the results depend on the processing

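With 3 samples per group, differences smaller than the intervals given for the uncalled genes may have been missed. Slc25a20 was called in AMPK-KO under every scaling, filter and test tried at the same threshold, with log2 fold changes of 0.33 to 0.35, and of 0.30 to 0.37 with each library left out. With an added absolute log2 fold change above 1, or with DESeq2 at an unadjusted p and that fold, 0 members were higher in AMPK-KO, 1 and 1 pathway genes higher, and 1 and 2 lower, while between the stages 0 and 0 were higher and 0 and 1 lower. DESeq2 called 8 pathway genes higher in late-stage TAMs. With each library left out in turn, 0 to 1 members were lower in AMPK-KO (1 without WT replicate 1) and 0 to 1 higher in late-stage TAMs (1 without early replicate 1), and late-stage pathway genes numbered 0 to 11 higher (0 without early replicate 2, 11 without early replicate 1) and 2 to 5 lower. Crat, Sirt3, Ppargc1a and G0s2 in AMPK-KO and Acsl1, Acsl5, Pparg, Plin2 and Mgll in late-stage TAMs lost their call without at least 1 library. The cause was not tested. Deviations of samples with the same replicate number were hardly correlated (r of −0.0039 to 0.042). This check cannot exclude a pairing, and the labels do not say whether the numbers pair the samples. With the replicate block, 1 member was higher and 0 lower in AMPK-KO, with 12 pathway genes higher and 16 lower, and 0 members, 3 higher and 4 lower pathway genes were called between the stages, where Pparg lost its call, as did Sirt3 in AMPK-KO. No called result changed its direction under these alternatives.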
